A study of Mus musculus with 6 samples.

Results

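The genes described here are 10 genes of the Hippo pathway in cultured Schwann cells (SCs), the glia that wrap and repair peripheral axons. They are the transcriptional coactivators *Yap1* (YAP) and *Wwtr1* (TAZ), their DNA-binding partners *Tead1* and *Tead3*, the kinases *Lats1* and *Lats2*, the scaffolds *Amotl1* and *Amotl2*, and the YAP/TAZ target genes *Ankrd1* and *Axl*. They were chosen by name, as the rows of the exonic count table whose Ensembl identifier carries one of these symbols, and they make up 10 of 55401 genes in the table. All 10 passed the filter on low counts.

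Poly(A) RNA-seq was made from SCs that adult dorsal root ganglia gave rise to in culture, with 3 libraries from WT mice and 3 from *Plxnb1*-/- mice, which lack Plexin-B1, a receptor for semaphorins. The mutant allele, on a C57BL/6 background, carries a gene-trap cassette in every cell of the animal, so the deletion was not restricted to SCs. All cultures of either genotype were passaged in medium with forskolin, neuregulin and serum, and fibroblasts were depleted with an antibody against Thy1. Neither the sex of the mice nor the assignment of cultures to animals is given in the sources used here, so p-values measure the spread between these cultures.

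In the Hippo pathway, a cascade of kinases ends in LATS1 and LATS2, which phosphorylate YAP and TAZ and keep them in the cytoplasm. Unphosphorylated YAP and TAZ enter the nucleus and bind TEAD proteins, which recognise the letters CATTCC and recruit them to target genes. Angiomotin-family scaffolds such as AMOTL1 and AMOTL2 bind YAP and TAZ at cell junctions and on actin. In SCs, YAP and TAZ are known for their part in proliferation, radial sorting of axons and myelination. RNA levels, which are what was measured, do not show the phosphorylation or the location of these proteins.

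The sequences below show where the TEAD motif lies next to the start of members of the pathway and of its targets. RefSeq promoter windows of GRCm38.p6, from 250 bases before to 50 bases after a start, were searched for CATTCC on either strand. Windows were found for 9 of the 10 genes. The motif was present in 7 of these 9 genes, with 11 distinct sites, 4 of them in *Tead3*. No such letters were found in the windows of *Amotl1* and *Lats1*, and *Tead1* had no window. The *Amotl1* window, chr9:14614951-14615250, lies inside the gene. Its annotated 5′ end, at chr9:14645056, was not searched. Among all genes in the promoter table, 16.6% of 27025 held the motif in any window. By window, these were 9 of 13 for the genes described here and 14.7% of 32851 in the whole table. Each line gives 30 bases, 5′ to 3′ on the strand of the gene, with the motif or its reverse complement in capitals.
*Yap1*, chr9:8004720-8004749, minus strand: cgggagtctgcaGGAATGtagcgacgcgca
*Wwtr1*, chr3:57576029-57576058, minus strand: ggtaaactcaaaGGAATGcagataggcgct
*Lats2*, chr14:57746102-57746131, minus strand: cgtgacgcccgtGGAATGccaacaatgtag
*Amotl2*, chr9:102717727-102717756, plus strand: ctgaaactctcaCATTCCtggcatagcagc
*Ankrd1*, farther site, chr19:36120037-36120066, minus strand: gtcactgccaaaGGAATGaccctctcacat
*Ankrd1*, nearer site, chr19:36119950-36119979, minus strand: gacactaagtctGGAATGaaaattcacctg
*Axl*, chr7:25788949-25788978, minus strand: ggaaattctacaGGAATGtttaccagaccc
In *Ankrd1* the sites ended 205 and 118 bases before the RefSeq start. The sites ended 136 bases before the start in *Yap1*, 131 in *Wwtr1*, 60 in *Amotl2* and 228 in *Axl*. In *Lats2* the site began 4 bases past a RefSeq start inside the gene, whose annotated 5′ end is at chr14:57758388. The window of its other RefSeq start held no motif. These matches describe letters only, and binding was not measured.

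Total counts lay between 59252048 and 77280964 per library. *Plxnb1* RNA was 61.8, 45.4 and 96.4 CPM (counts scaled to library size with TMM factors) in WT replicates 1 to 3 and 13.1, 16.6 and 18.6 CPM in the *Plxnb1*-/- replicates. It fell by 2.08 on the log2 scale (SE 0.25, edgeR adjusted p = 0.0449), in the direction that the labels give. Of 22318 genes tested, edgeR called 8 (0.0358%) at an adjusted p under 0.05 and an absolute log2 fold change over 0.25, and DESeq2 called 335 (2.24% of the 14960 genes to which it gave an adjusted p). The SC marker *Sox10* was at 432 to 580 CPM, *S100b* at 7.09 to 8.22 CPM, and the fibroblast marker *Thy1* at 384 to 652 CPM. All 12 fibroblast markers were detected, and their summed level was 17410 to 21522 CPM in WT and 15964 to 16712 CPM in *Plxnb1*-/- cultures. Most of this sum came from the collagen genes *Col1a1*, *Col1a2* and *Col3a1*, at WT means of 6220, 5764 and 5299 CPM. WT replicate 2 stood apart, with the highest sum. In bulk RNA, fewer cells of a type and less RNA per cell cannot be told apart.

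Between genes, levels were compared as TPM, which divides by the length of the exons. *Axl*, a receptor tyrosine kinase, was the most abundant of the 10, at a mean of 862 TPM over the 6 cultures (range 814.8 to 920.7). *Wwtr1* followed at 267 TPM (247 to 281). *Tead1* and *Amotl1* came next with 150.4 (136 to 161) and 123 TPM (114 to 137), and these ranges overlapped. *Amotl2* at 70.6 TPM (65.4 to 80.3) and *Yap1* at 69.1 TPM (67.6 to 70.5) overlapped as well. *Lats1* was at 59.5 TPM (56.4 to 63.3), *Lats2* at 40.5 TPM (36.2 to 43.7) and *Tead3* at 17.5 TPM (16.8 to 18.8). *Ankrd1*, which encodes a muscle ankyrin repeat protein and is a widely used readout of YAP activity, was lowest at 0.653 TPM (0.450 to 0.937). *Axl* and *Ankrd1* stood at the ends of the order, and every other neighbouring pair had ranges apart. Of the 6971 exon bases of *Lats2*, 2955 are shared with *Gm49361* on the same strand. How reads were divided between them is not known, so the level of *Lats2* and its place below *Lats1* are uncertain.

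**Figure D1:**
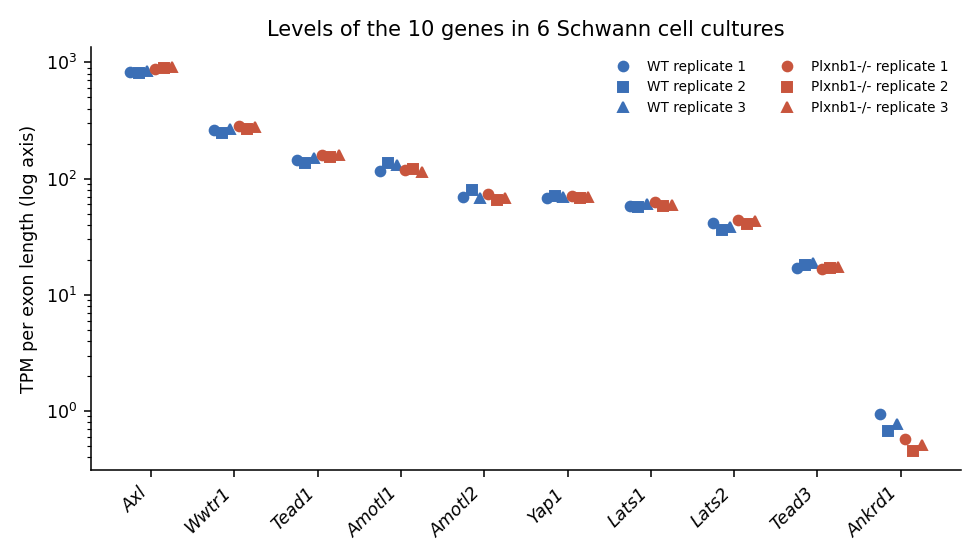
Level of the 10 genes in TPM (log axis), with 1 point per culture, WT in blue and *Plxnb1*-/- in red. The genes run from *Axl* at a mean of 862 TPM to *Ankrd1* at 0.653 TPM, and for each gene but *Ankrd1* the 6 cultures lie close together.

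Against this spread of levels the genotype differences were small. None of the 10 genes was called by edgeR, and none by DESeq2. Of the 10, 5 were higher and 5 lower in *Plxnb1*-/- cultures, and the median log2 fold change was 0.00, as over all tested genes. The median absolute log2 fold change was 0.10, against 0.12 over all tested genes and 0.06 over the 6758 genes at 30 CPM or more. An unadjusted edgeR p under 0.05 was found for 5 of the 10 genes (*Tead1*, *Lats2* and *Axl* higher, *Amotl1* and *Ankrd1* lower), where 13.7% of all tested genes and 21.5% of those at 30 CPM or more reached it. The count of 5 was 3 with DESeq2, with upper-quartile factors or on the FPKM values, and 1 to 3 with any one library left out (1 without *Plxnb1*-/- replicate 3). The adjusted p of these 5 genes lay between 0.296 and 0.359.

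**Figure D2:**
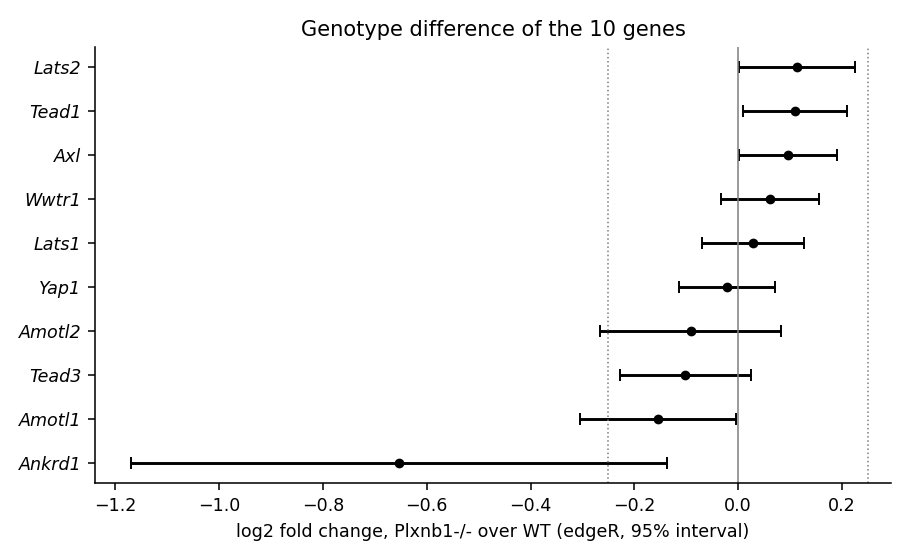
Log2 fold change of each of the 10 genes in *Plxnb1*-/- over WT cultures (points) with its 95% interval (bars), from edgeR, and dotted lines at 0.25 either side of 0. The intervals of 9 genes lie between -0.30 and 0.22, and that of *Ankrd1* runs from -1.17 to -0.14.

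*Yap1* RNA was 167, 177 and 170 CPM in the WT replicates and 171, 166 and 169 CPM in the *Plxnb1*-/- replicates. The *Plxnb1*-/- values lay inside the WT range but for replicate 2. The log2 fold change was -0.02 (SE 0.04, 95% interval -0.11 to 0.07, edgeR adjusted p = 0.854), so these data bound the ratio of the genotypes between 0.924 and 1.05. The gene lies at chr9:7931999-8004596 on the same chromosome as *Plxnb1* and 101 Mb from it. It overlaps an antisense gene, *Gm20416*, over 116 bases, and the strand setting of the counting is not given in the sources used here, but *Gm20416* had at most 547 counts in a library.

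*Wwtr1* RNA was 335, 321 and 341 CPM in WT and 352, 340 and 349 CPM in *Plxnb1*-/- cultures. The genotypes overlapped by a single culture, with WT replicate 3 above *Plxnb1*-/- replicate 2. The log2 fold change was 0.06 (SE 0.04, 95% interval -0.03 to 0.16, edgeR adjusted p = 0.543). In TPM, *Wwtr1* was 3.89, 3.51 and 3.88 times *Yap1* in WT and 3.99, 3.96 and 3.99 times in *Plxnb1*-/- cultures. The ratio was 3.76 ± 0.216 (SD, n = 3) and 3.98 ± 0.0197 (SD, n = 3), and the exact permutation test gave p = 0.1, the smallest that 3 against 3 allows. This ratio and the shares within families were chosen after the data had been seen.

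Of the TEAD factors, *Tead1* had 525, 501 and 539 CPM in WT and 561, 551 and 577 CPM in *Plxnb1*-/- cultures. Every *Plxnb1*-/- culture was above every WT culture, as in 9.3% of all tested genes. The log2 fold change was 0.11 (SE 0.04, 95% interval 0.01 to 0.21), and the edgeR adjusted p was 0.338. *Tead3* had 30.2, 33.3 and 33.5 CPM in WT and 29.4, 30.1 and 30.9 CPM in *Plxnb1*-/- cultures, where the genotypes overlapped at WT replicate 1. Its log2 fold change was -0.10 (SE 0.06, 95% interval -0.23 to 0.02, edgeR adjusted p = 0.451).

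The other TEAD genes were set beside them to give the makeup of the family. *Tead2* had 72.6, 78.9 and 75.1 CPM in WT and 67.9, 67.3 and 71.0 CPM in *Plxnb1*-/- cultures, without overlap (log2 fold change -0.14, SE 0.05, edgeR adjusted p = 0.295). *Tead4* was low, at 1.57 to 2.53 CPM, and overlapped (log2 fold change -0.24, SE 0.19, edgeR adjusted p = 0.608). *Tead1* made up 65.7%, 62.5% and 65.1% of the TEAD TPM in WT and 68.5%, 67.9% and 68.2% in *Plxnb1*-/- cultures. The share of *Tead1* was thus higher in every *Plxnb1*-/- culture, while that of *Tead3* was lower, at 7.64% to 8.39% in WT against 7.27% to 7.50%. For either share the exact permutation p was 0.1, the lowest possible. Shares of the same total are not independent, and that of *Tead2*, at a mean of 56.6 TPM, was not computed.

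The LATS kinases inhibit YAP and TAZ. *Lats1* had 112, 112 and 118 CPM in WT and 121, 113 and 115 CPM in *Plxnb1*-/- cultures, with the genotypes interleaved (log2 fold change 0.03, 95% interval -0.07 to 0.13, edgeR adjusted p = 0.814). *Lats2*, which is also a transcriptional target of YAP and TAZ, had 76.2, 68.6 and 71.6 CPM in WT and 79.6, 75.6 and 78.8 CPM in *Plxnb1*-/- cultures. WT replicate 1 lay above *Plxnb1*-/- replicate 2, so the groups overlapped. The log2 fold change of *Lats2* was 0.11 (SE 0.05, edgeR adjusted p = 0.358). *Lats2* shares 2955 bases with *Gm49361* on the same strand, to which 2274 to 3405 counts were assigned, so the division of reads between these genes is uncertain. *Lats2* made up 38.8% to 41.5% of the LATS TPM in WT and 40.8% to 41.7% in *Plxnb1*-/- cultures, which overlap. These shares carry the same uncertainty.

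*Amotl1* and *Amotl2* encode angiomotin-like proteins. *Amotl1* had 312, 376 and 354 CPM in WT and 311, 322 and 304 CPM in *Plxnb1*-/- cultures. WT replicates 2 and 3 were above all *Plxnb1*-/- cultures, and WT replicate 1 was among them. The log2 fold change was -0.15 (SE 0.07), with an edgeR adjusted p of 0.355, and -0.09 without WT replicate 2. *Amotl2* had 115, 138 and 113 CPM in WT and 121, 109 and 113 CPM in *Plxnb1*-/- cultures, so that WT replicate 2 was the one culture set apart. Its log2 fold change was -0.09 (SE 0.08, 95% interval -0.27 to 0.08, edgeR adjusted p = 0.632), and 0.01 without WT replicate 2. *Amotl2*, at chr9:102716672-102733418, lies 6.36 Mb from *Plxnb1*, and *Amotl1*, at chr9:14541966-14645056, lies 94.5 Mb from it.

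**Figure D3:**
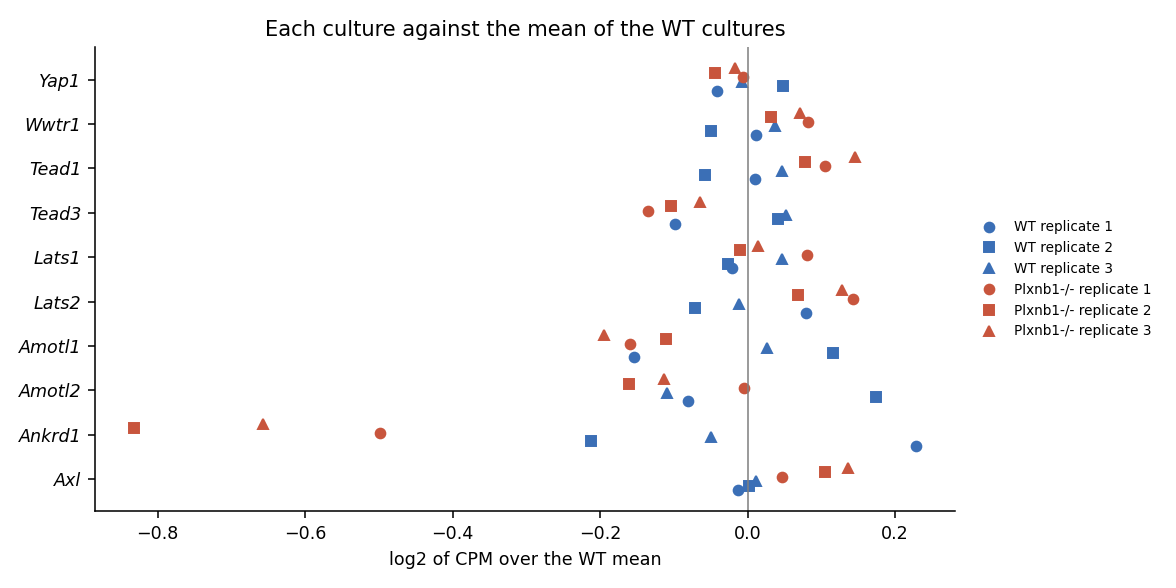
Log2 of CPM over the WT mean for each of the 10 genes, with 1 marker per culture (circle, square and triangle for replicates 1, 2 and 3, WT in blue and *Plxnb1*-/- in red). The genotypes are apart for *Tead1* and *Axl*, which were higher, and for *Ankrd1*, which was lower, and WT replicate 2 is the highest culture for *Yap1*, *Amotl1* and *Amotl2*.

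*Ankrd1* showed the largest fold change of the 10 genes and had the fewest counts. It had 46, 31 and 42 counts in WT and 34, 25 and 27 counts in *Plxnb1*-/- cultures, or 0.719, 0.530 and 0.593 CPM against 0.435, 0.345 and 0.389 CPM. Every *Plxnb1*-/- culture was below every WT culture, as in 10.4% of all tested genes. The level was 0.636 times that of WT (95% interval 0.445 to 0.910), a log2 fold change of -0.65 (SE 0.23), with an edgeR adjusted p of 0.296. DESeq2 gave an unadjusted p of 0.0526 and set no adjusted p, because of its filter on low means. Without each culture in turn, the log2 fold change lay between -0.74 and -0.52. On the deposited FPKM values it was -0.24 as log2(FPKM + 0.1) and -0.04 as log2(FPKM + 1), scales that understate the change of a gene this low.

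*Axl* had 1105, 1117 and 1124 CPM in WT and 1151, 1199 and 1225 CPM in *Plxnb1*-/- cultures. The *Plxnb1*-/- cultures were all above the WT cultures, in the direction opposite to that of *Ankrd1*. The log2 fold change was 0.10 (SE 0.04, 95% interval 0.00 to 0.19), and the edgeR adjusted p was 0.359. AXL belongs to the TAM receptors, which bind the ligands GAS6 and protein S (*Pros1*) and act in the clearance of dying cells and of myelin debris. Of this family of 5 genes, 4 had higher values without overlap (9.3% of all tested genes did), namely *Axl*, *Mertk*, *Gas6* and *Pros1*. All 8 macrophage markers also had fold changes above 0, at summed levels of 37.8 to 43.1 CPM in WT and 43.7 to 51.7 CPM in *Plxnb1*-/- cultures, and their part in the values of this family was not tested. *Mertk* had 43.3, 35.3 and 47.0 CPM in WT and 49.4, 54.7 and 54.9 CPM in *Plxnb1*-/- cultures. It was called by DESeq2 (adjusted p = 0.0368) and not by edgeR (log2 fold change 0.34, SE 0.10, adjusted p = 0.273). *Gas6* had 30.6 to 33.5 CPM in WT and 37.3 to 38.3 CPM in *Plxnb1*-/- cultures, with a log2 fold change of 0.24 that is under the cutoff of 0.25 (DESeq2 adjusted p = 0.0194, edgeR adjusted p = 0.262). *Tyro3* was the family member on the other side, with a log2 fold change of -0.07 and overlapping groups (edgeR adjusted p = 0.506).

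Over the 6 cultures, Pearson's r of log2 CPM between the 10 genes ranged from -0.97 to 0.95 over 45 pairs, with a median of -0.18. *Wwtr1* and *Tead1* had r = 0.95, *Yap1* and *Amotl2* 0.90, *Ankrd1* and *Axl* -0.89, and *Lats2* and *Amotl1* -0.97. The 6 points share the genotype difference and the makeup of each culture, so these values describe the cultures. Among 14992 genes with a mean of at least 1 CPM, the patterns most like that of *Yap1* were those of *Csf1*, *Foxp2* and *Acads* (r = 0.989, 0.988 and 0.987). For *Wwtr1* they were *Igip*, *Alkbh8* and *Nfyb* (r = 0.994, 0.994 and 0.993), and for *Axl* they were *Dgke*, *Scg3* and *Cers1* (r = 0.997, 0.994 and 0.989). These values are the highest of a search over 14992 genes with only 6 cultures, and they were not tested.

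The rest of the pathway was read from gene lists that include the 10 genes where they belong. Outside the 10 genes, 50 of 52 pathway and target genes were tested, of which 29 were higher and 21 lower, with a median log2 fold change of 0.03. edgeR called none of them, and 16 had an unadjusted p under 0.05 (7 higher, 9 lower). That p was reached by 13.7% of all tested genes and by 21.5% of those at 30 CPM or more. DESeq2 called 2, both lower, against 2.24% of the genes to which it gave an adjusted p. The core kinase cassette (*Stk3*, *Stk4*, *Sav1*, *Mob1a*, *Mob1b*, *Nf2* and the LATS genes) had 6 genes higher and 2 lower, within -0.03 and 0.11. None of its 8 genes was called by edgeR or DESeq2, 1 had an unadjusted p under 0.05, and its ends were *Lats2* and *Stk4*. *Stk4*, which encodes the Hippo kinase MST1, had 42.9, 43.8 and 43.5 CPM in WT and 42.4, 42.6 and 42.4 CPM in *Plxnb1*-/- cultures (edgeR adjusted p = 0.775).

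Upstream of LATS, 15 kinases and scaffolds had 10 genes higher and 5 lower, and a median log2 fold change of 0.09. None was called by edgeR or DESeq2, and 5 had an unadjusted p under 0.05 (4 higher, 1 lower). For this list and those below, the share over all tested genes was 13.7%, and 21.5% at 30 CPM or more. *Map4k3*, whose kinase family can activate LATS in parallel to MST, was highest with 114, 90.5 and 102 CPM in WT and 114, 119 and 133 CPM in *Plxnb1*-/- cultures (log2 fold change 0.26, SE 0.09, edgeR adjusted p = 0.293). *Taok3*, a kinase that can activate MST, was lowest with a log2 fold change of -0.19 (SE 0.06, edgeR adjusted p = 0.293). Of 10 junctional partners of LATS or YAP, 6 were higher and 4 lower, none was called by edgeR or DESeq2, and 3 had an unadjusted p under 0.05. They ran from *Amotl1* to *Limd1*, a LIM-domain protein that can bind LATS (log2 fold change 0.13, SE 0.05, edgeR adjusted p = 0.325), which lies on the chromosome of *Plxnb1*. Of 10 nuclear effectors and TEAD cofactors, 8 were tested, with 4 higher and 4 lower. None was called by either tool, and 2 (*Tead1* and *Tead2*) had an unadjusted p under 0.05. The cofactor *Vgll4*, which competes with YAP for TEAD, had a log2 fold change of 0.08 (SE 0.06, edgeR adjusted p = 0.551).

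A conserved signature of 22 YAP/TAZ targets had log2 fold changes from -0.65 to 0.23, a wider range than in the other, shorter pathway lists. The median absolute log2 fold change was 0.13, as among the upstream kinases and scaffolds (0.13), against 0.12 over all tested genes. The signature holds *Ankrd1*, *Axl*, *Lats2* and *Amotl2*. In *Plxnb1*-/- cultures 12 targets were lower and 10 higher, with a median log2 fold change of -0.05 against 0.00 over all tested genes. edgeR called none, and 11 had an unadjusted p under 0.05 (7 lower, 4 higher). That p was reached by 13.7% of all tested genes and by 21.5% of those at 30 CPM or more. All cultures of the genotypes were apart for 4 lower and 5 higher targets, against 10.4% and 9.3% of all tested genes. Targets thus lay on both sides of 0.

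Of the 22 targets, DESeq2 called 2, *Tgfb2* and *Fjx1*, both lower. *Tgfb2*, a growth factor of the TGF-β family, had 35.3, 39.4 and 32.2 CPM in WT and 29.4, 25.8 and 21.2 CPM in *Plxnb1*-/- cultures. Its log2 fold change was -0.48 (SE 0.12), with adjusted p = 0.00627 by DESeq2 and 0.266 by edgeR. *Fjx1*, a relative of the *Drosophila* gene four-jointed, had 38.6, 50.1 and 44.3 CPM in WT and 34.8, 36.8 and 30.4 CPM in *Plxnb1*-/- cultures (log2 fold change -0.38, SE 0.10, adjusted p = 0.0201 by DESeq2 and 0.273 by edgeR). For these genes the genotypes did not overlap. *Nt5e*, the ectonucleotidase CD73, had a log2 fold change of -0.41 (SE 0.18, edgeR adjusted p = 0.364) with overlapping groups, and lies 20.7 Mb from *Plxnb1*. On the higher side stood *F3* (tissue factor) at 0.23, *Dock5* (a Rac exchange factor) at 0.14 and *Arhgef17* at 0.13, with edgeR adjusted p of 0.291, 0.293 and 0.400.

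The matricellular genes *Ccn2* (CTGF) and *Ccn1* (CYR61), the targets used most often beside *Ankrd1*, fall outside the rule for named genes and were added after their values were seen. *Ccn2* had 518, 700.0 and 544 CPM in WT and 517, 479 and 394 CPM in *Plxnb1*-/- cultures. The lowest WT culture and the highest *Plxnb1*-/- culture differed by about 1 CPM, and the log2 fold change was -0.34 (SE 0.12, edgeR adjusted p = 0.308, DESeq2 adjusted p = 0.0995). *Ccn1* had 254, 298 and 251 CPM in WT and 255, 220 and 220 CPM in *Plxnb1*-/- cultures, which overlap (log2 fold change -0.21, SE 0.08, edgeR adjusted p = 0.325). Without WT replicate 2, the log2 fold change was -0.19 for *Ccn2*, -0.12 for *Ccn1*, -0.18 for *Nt5e*, -0.40 for *Tgfb2* and -0.28 for *Fjx1*. The number of lower targets with an unadjusted p under 0.05 was then 3 in place of 7. It was also 3 without *Plxnb1*-/- replicate 3.

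**Figure D4:**
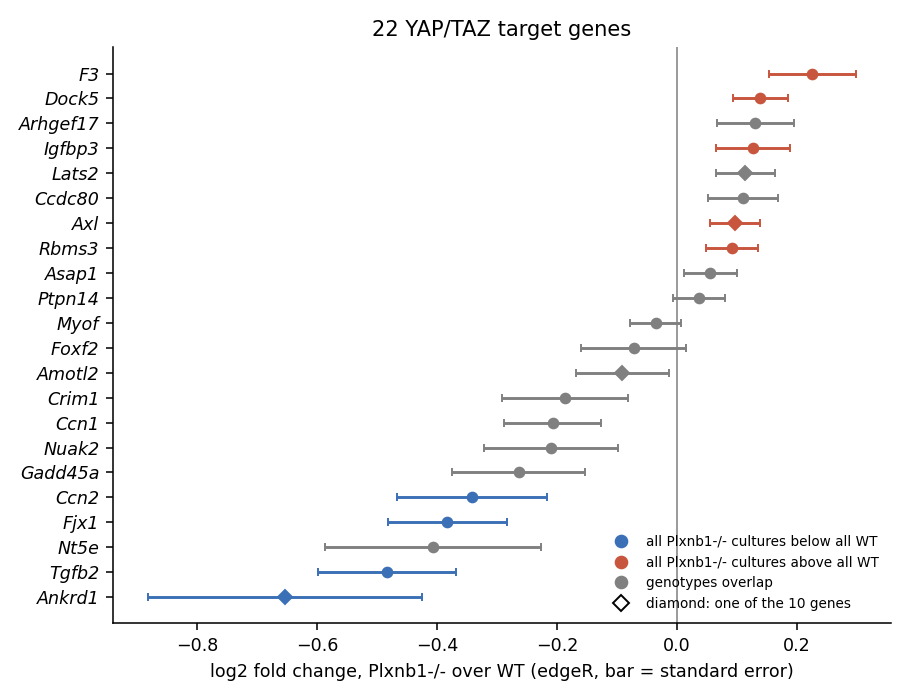
Log2 fold change of the 22 YAP/TAZ target genes in *Plxnb1*-/- over WT cultures, with standard errors from edgeR. Blue marks the 4 targets for which all *Plxnb1*-/- cultures were below all WT cultures, red the 5 for which all were above, grey those that overlapped, and diamonds the 4 that are among the 10 genes.

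Markers of cell types were set beside these values, and no test of their lists was made. Over all tested genes, 13.7% had an unadjusted p under 0.05 (21.5% at 30 CPM or more). Without overlap, 9.3% were higher and 10.4% lower, and DESeq2 called 2.24% of the genes to which it gave an adjusted p. Of 12 fibroblast markers, 11 were lower, 5 of them without overlap, with a median log2 fold change of -0.24, and DESeq2 called *Col1a1* (edgeR adjusted p = 0.273, DESeq2 adjusted p = 0.0258). Of 14 SC markers, 13 were higher, with a median of 0.20 and sums of 3764 to 4419 CPM in WT and 4394 to 4974 CPM in *Plxnb1*-/- cultures, where neither tool called any and 9 had an unadjusted p under 0.05, all higher. Mural and smooth muscle markers summed to 1351 to 1817 CPM in WT and 1151 to 1274 CPM in *Plxnb1*-/- cultures, with 4 of 8 higher, 4 lower and *Acta2* and *Cnn1* called lower by DESeq2. All 8 macrophage markers were higher, at sums of 37.8 to 43.1 and 43.7 to 51.7 CPM, with *Cx3cr1* called by DESeq2. *Cx3cr1* lies 10.8 Mb from *Plxnb1* on the same chromosome. All 8 neuron markers were higher as well, at 150.1 to 164.0 and 164.9 to 187.6 CPM, and neither tool called any (0 at an unadjusted p under 0.05). Most of the neuron sum was *Tubb3*, at 127 to 153 CPM. Of 6 endothelial markers, 2 were higher and 4 lower, at 63.9 to 83.5 and 68.0 to 74.0 CPM, with none called by either tool and 1 at an unadjusted p under 0.05. At a mean of 1 CPM or more, log2 fold changes ran from -0.39 (*Thy1*) to 0.08 (*Lum*) in the fibroblast list and from -0.02 (*Foxd3*) to 0.31 (*Mbp*) in the SC list. They ran from -0.44 (*Cnn1*) to 0.21 (*Myh11*) in the mural list, from 0.13 (*Cd68*) to 0.49 (*Cx3cr1*) in the macrophage list, from 0.05 (*Nefh*) to 0.53 (*Syt1*) in the neuron list and from -0.66 (*Pecam1*) to 0.04 (*Emcn*) in the endothelial list. WT replicate 2 had the highest fibroblast sum and also the highest *Yap1*, *Amotl1*, *Amotl2*, *Ccn2* and *Ccn1*. It had the lowest SC marker sum and the lowest *Wwtr1*, *Tead1*, *Lats1* and *Lats2*. The part of these markers in the values of the Hippo genes was not tested.

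**Figure D5:**
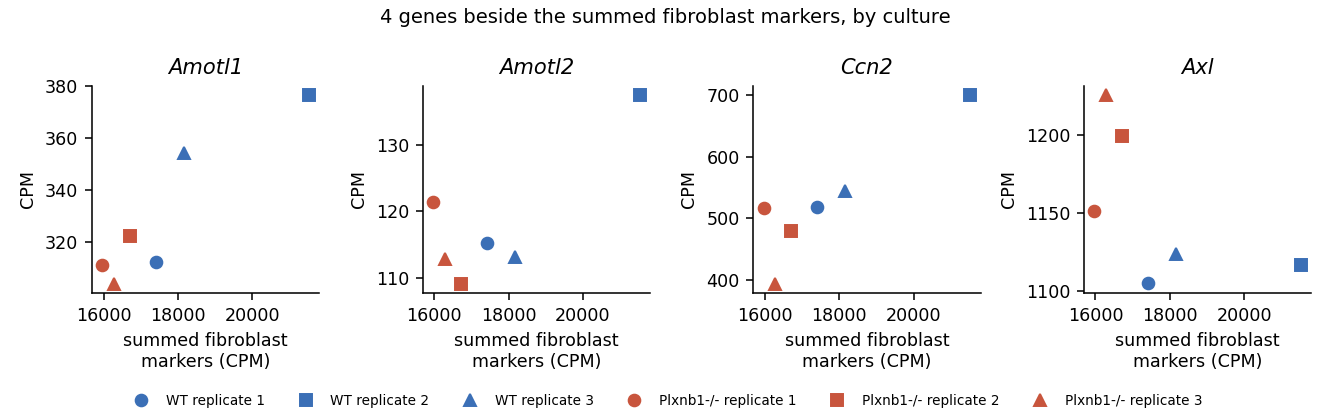
CPM of *Amotl1*, *Amotl2*, *Ccn2* and *Axl* (y axes) against the summed CPM of 12 fibroblast markers (x axes), with 1 symbol per culture and neither axis starting at 0. WT replicate 2, at 21522 CPM of fibroblast markers, is the highest culture for *Amotl1*, *Amotl2* and *Ccn2* and lies among the WT cultures for *Axl*. Most of the summed CPM is that of *Col1a1*, *Col1a2* and *Col3a1*.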

How the data were processed

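Poly(A) RNA of 3 WT and 3 *Plxnb1*-/- SC cultures was sequenced from stranded libraries. Per the submitters' processing notes and the study's methods, reads were trimmed with Trim Galore 0.6.5, aligned to mm10 with Bowtie2 2.4.1, an aligner that does not span introns, and freed of duplicates with SAMtools 1.10. The authors deposited raw exonic read counts per gene from featureCounts, and FPKM values that they computed with the span of each gene as its length. Neither was normalized further before it was used here.

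Symbols and exon lengths came from GENCODE M21 (GRCm38), which matched 55141 of 55401 identifiers by stable identifier. A gene was tested when 5 or more of the 6 libraries held 2 or more counts of it (22318 genes). Genotypes were compared with edgeR 4.0.16 (TMM factors, quasi-likelihood test on genotype alone, Benjamini-Hochberg over all tested genes) under R 4.3.3, and with DESeq2 1.42.0. The steps were tested on simulated data. Ratios and shares were compared with exact two-sided permutation tests in SciPy 1.17.1. For detection, 3 counts equal 0.0388 to 0.0506 CPM, and this floor covers counting error only.

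Named genes were the 10 genes, *Plxnb1*, every list gene called by a tool, and the highest and lowest gene of each list at a mean of 1 CPM or more (up to 3 each way for targets and nuclear effectors). *Sox10*, *S100b*, *Gas6*, *Pros1*, *Ccn1* and *Ccn2* fall outside this rule and were named after their values were seen. For likeness they were the 3 genes with the highest r to *Yap1*, *Wwtr1* and *Axl*. The genes and lists were chosen with earlier results of these data known. Alternatives were other scaling factors, DESeq2, limma 3.58.1 (voom, and log2 of FPKM plus 0.1 or 1), other filters, no fold cutoff, a replicate term and each library left out. Single exons and pathway terms were not analysed here, and 1 gene list is not reported here.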

Additional observations from a re-analysis of the deposited data

How the results depend on the processing

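None of the 10 genes was called under any of the 16 alternatives. Of 150 recomputed fold changes of these genes, 147 kept their sign and 3 reversed, all near 0: *Yap1* at 0.0053 and *Amotl2* at 0.0072 without WT replicate 2, and *Lats1* at -0.0006 without *Plxnb1*-/- replicate 1. With each library left out, *Yap1* ran from -0.0403 to 0.0053, *Lats1* from -0.0006 to 0.0525 and *Amotl2* from -0.143 to 0.0072. Scaling moved the median of all tested genes between -0.004 and 0.005 on the log2 scale. The cause of the changes below was not tested.

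The number of the 10 genes at an unadjusted p under 0.05, 5 in edgeR, was 3 with upper-quartile factors, 3 with DESeq2, 3 with limma on log2(FPKM + 0.1) and 3 with a pseudocount of 1, and 1 to 3 with a library left out. It was 3 without WT replicate 1, 2 without WT replicate 2, WT replicate 3, *Plxnb1*-/- replicate 1 or *Plxnb1*-/- replicate 2, and 1 without *Plxnb1*-/- replicate 3. Over all tested genes, edgeR called 8, DESeq2 335, edgeR with no filter on low counts 296, limma 3 at either FPKM pseudocount, and edgeR 4 to 25 with a library left out (25 without WT replicate 2, 5 without *Plxnb1*-/- replicate 1, 4 without *Plxnb1*-/- replicate 2 and 4 without *Plxnb1*-/- replicate 3). With the replicate number as a block it called 5. The same number did not pair the cultures (r of their deviations -0.022, 0.008 and 0.065), and the block called none of the 10 genes. The adjusted p of *Plxnb1* was above 0.05 with voom (0.108), with a filter of 10 counts (0.0648), with either FPKM pseudocount (0.413), and without WT replicate 1 or any one *Plxnb1*-/- replicate (0.0886 to 0.268), and its log2 fold change stayed between -2.30 and -1.14. Lower targets numbered 12 of 22, and 11 without WT replicate 2, under alternatives chosen after seeing the data. Their number at an unadjusted p under 0.05 lay between 3 and 9. For *Ankrd1*, which had 25 to 46 counts in a library, the log2 fold change was -0.24 and -0.04 with FPKM pseudocounts of 0.1 and 1.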
